A study of Homo sapiens with 15 samples.

Results

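The comparison described here sets cells that hold an adipose triglyceride lipase (ATGL) with its catalytic serine against cells that do not, all in the same knockout background. Libraries were chosen by the genotype in their labels, and they were 12 of the 15 libraries of the series, from 4 of its 5 lines. The intact pool held 6 libraries, 3 from the ATGL knockout with wild-type ATGL put back (KO_WT) and 3 from the knockout with the S404A protein put back (KO_S404A). The absent pool held 6 libraries, 3 from the ATGL knockout itself (KO) and 3 from the knockout with the S47A protein put back (KO_S47A), which the submitters describe as inactive in lipolysis. The 3 libraries left out of the test came from a scramble control (Scramble), whose own PNPLA2 gene is uncut. Its levels are given beside the others for some of the genes.

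The cells were C4-2, a castration-resistant prostate cancer line derived from LNCaP, grown with 5 mM glucose and 5% dialyzed serum, and poly(A) RNA was sequenced with a directional kit. Each genotype was 1 line, and the sources used here state neither whether it was cloned nor whether its libraries came from separate cultures. The p-values therefore measure the spread among these libraries alone, part or all of which may be technical. A test over lines alone, 2 against 2, cannot go below an exact two-sided p of 0.333.

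ATGL, encoded by PNPLA2, cuts the first fatty acid from the triglyceride held in lipid droplets, with a serine of its patatin domain as the nucleophile. Hormone-sensitive lipase and monoglyceride lipase complete the breakdown, ABHD5 switches ATGL on, and G0S2 holds it back. In liver, heart and brown fat the fatty acids that ATGL releases are known to feed mitochondrial oxidation and to activate the nuclear receptor PPARα. The serine replaced in S404A lies outside the catalytic site and is known as a site phosphorylated by the energy-sensing kinase AMPK, so S404A leaves the catalytic serine in place.

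The codons that the names of the proteins refer to are shown because the pools are defined by the first of them. In the reference PNPLA2 transcript of GENCODE 29, with a coding sequence of 504 codons, both lie in coding exons on the plus strand of chromosome 11 (GRCh38), codon 47 in exon 2 of 10 at chr11:819857-819859 and the codon of S404A in exon 10 at chr11:824557-824559. The lines give 8 codons to each side, 5′ to 3′, with the serine codon in capitals. The sequences of the constructs themselves were not used here.
S47A: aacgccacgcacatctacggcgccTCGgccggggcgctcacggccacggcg
S404A: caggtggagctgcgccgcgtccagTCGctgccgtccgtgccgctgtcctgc

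Counts in genes totalled 41521069 to 64345775 per library in the 12 libraries compared. All 12 prostate line markers, KLK3 among them, exceeded 1 CPM (counts per 1e+06 counts in genes, scaled by TMM) in each of the 12 libraries. Their summed level was 6399 to 7895 CPM in the intact pool and 6591 to 8220 CPM in the absent pool. Of 17 markers of stroma, endothelium and blood, 2 were at 0 and 4 exceeded 1 CPM in every library, with sums of 36.9 to 50.1 CPM in the intact pool and 31.5 to 50.2 CPM in the absent pool. Of 18 markers of other epithelial lines, 3 were at 0 and 3 exceeded 1 CPM, with sums of 9.65 to 13.5 and 10.6 to 16.0 CPM. Libraries with the number 3 stood apart from numbers 1 and 2 in the amino acid response and cell cycle lists described at the end, and the number was a term of the fit.

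PNPLA2 itself separated the pools, but it also separated the lines within them. KO stood at 13.0, 11.9 and 9.11 CPM and KO_S47A at 112.7, 110.3 and 164.4 CPM. KO_WT stood at 212.6, 206.5 and 240.5 CPM and KO_S404A at 303.2, 443.2 and 492.5 CPM, against 54.3, 47.1 and 45.3 CPM in Scramble. Every library of the intact pool lay above every library of the absent pool. The pooled log2 difference was 2.18 (SE 0.68, adjusted p = 1.00 by edgeR's quasi-likelihood test with Benjamini-Hochberg adjustment, which also gave the adjusted p-values that follow). The log2 difference between KO_S47A and KO, both without the catalytic serine, was 3.48 (SE 0.20, adjusted p = 3.43e-06). Between KO_S404A and KO_WT it was 0.90 (SE 0.18, adjusted p = 0.305). Whether a protein carries the serine and how much PNPLA2 RNA a line holds cannot be told apart across these 4 lines, and the amount of protein was not analysed here.

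Few genes distinguished the pools. Of 14152 genes tested, 3 were called at an adjusted p under 0.05, which is 0.0212% of them. WLS, the sorting receptor that brings lipid-modified Wnt proteins out of the cell, was higher in the intact pool. PCDH7, a protocadherin of cell adhesion, and CBLN2, a secreted cerebellin known from synapses, were lower. For PCDH7 and CBLN2 the lines within each pool also agreed, by the rule that all 4 differences between an intact and an absent line share a sign and that neither difference within a pool is called. These 2 genes were 0.0141% of the genes tested, and no gene was called higher with agreeing lines. At an unadjusted p under 0.05 there were 176 genes (1.24%), 114 higher and 62 lower.

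The size of the difference was small for most genes. Of all genes tested, 9 in 10 had a pooled log2 difference between −0.24 and 0.26, and the 95% interval of a gene's difference had a median half-width of 0.24. The interval lay entirely within −0.5 and 0.5 for 10627 genes, 75.1% of those tested. In the fit with 1 mean per pool the difference between the lines of a pool is part of the residual spread. The 6 libraries of a pool still count as separate, so a call does not show that the pools differ by more than their lines. No gene was called with counts summed per line or with the line as a random effect in limma-voom.

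PCDH7 was lower by about a factor of 2 in the intact pool. It stood at 58.6, 60.0 and 58.7 CPM in KO and at 45.2, 46.1 and 61.1 CPM in KO_S47A. It stood at 21.9, 19.85 and 23.7 CPM in KO_WT and at 27.02, 31.8 and 32.0 CPM in KO_S404A. The highest library with an intact serine (32.0 CPM) was below the lowest without (45.2 CPM). The pooled log2 difference was −1.07 (SE 0.13, 95% interval −1.35 to −0.80, adjusted p = 0.0221). Scramble was lower still, at 10.1, 8.73 and 15.8 CPM, so neither intact line came down to the range of the control.

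Each single pair of lines gave PCDH7 the same direction. The log2 difference was −1.44 for KO_WT minus KO (SE 0.10, adjusted p = 3.55e-05) and −1.21 for KO_WT minus KO_S47A (SE 0.10, adjusted p = 0.00054). It was −0.97 for KO_S404A minus KO (SE 0.10, adjusted p = 0.00194) and −0.74 for KO_S404A minus KO_S47A (SE 0.10, adjusted p = 0.0559). Within the pools it was 0.47 for KO_S404A minus KO_WT (adjusted p = 0.305) and −0.23 for KO_S47A minus KO (adjusted p = 0.129). The pooled effect in the libraries numbered 3 differed from that in the libraries numbered 1 and 2 by −0.05 (unadjusted p = 0.875). The pooled call was lost without KO 2 (adjusted p = 0.116), KO 3 (0.114), KO_WT 1 (0.125), KO_WT 3 (0.109), KO_S47A 3 (0.0623), KO_S404A 1 (0.069) or KO_S404A 3 (0.0512), while the log2 difference stayed between −1.172 and −1.002. It was also lost when counts were summed per line (−1.08, adjusted p = 0.79) and with the line as a random effect in limma-voom (−1.07, adjusted p = 0.0843).

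CBLN2 was lower in the intact pool as well. It stood at 87.6, 97.5 and 72.3 CPM in KO and at 66.8, 66.1 and 96.65 CPM in KO_S47A. It stood at 48.4, 49.98 and 37.05 CPM in KO_WT and at 46.0, 48.3 and 42.2 CPM in KO_S404A. The pools did not overlap, with 49.98 CPM the highest intact and 66.1 CPM the lowest absent value. The pooled log2 difference was −0.85 (SE 0.12, 95% interval −1.10 to −0.59, adjusted p = 0.0456). Scramble stood at 32.2, 33.8 and 45.05 CPM, a range that overlaps that of the intact pool and not that of the absent pool.

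The 2 intact lines had nearly the same CBLN2 level, with a log2 difference of 0.01 (SE 0.16, adjusted p = 0.976), and KO_S47A minus KO was −0.15 (SE 0.16, adjusted p = 0.529). The 4 differences between an intact and an absent line ran from −0.93 to −0.76 with an SE of 0.16 each, and none of them was called on its own (adjusted p = 0.0851 for KO_WT minus KO, 0.593 for KO_WT minus KO_S47A, 0.089 for KO_S404A minus KO and 0.277 for KO_S404A minus KO_S47A). Leaving out 1 library at a time kept the pooled log2 difference between −0.92 and −0.76. The call held only without KO_S47A 1 (adjusted p = 0.0373) or KO_S47A 2 (0.00904). Without each of the other 10 libraries it was lost, with adjusted p-values from 0.0633 without KO 1 to 0.225 without KO_WT 3. Counts summed per line gave −0.84 (adjusted p = 0.79), and limma-voom with the line as a random effect gave −0.83 (adjusted p = 1.00).

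WLS was higher in the intact pool, but its level was not the same in both lines without the serine. It stood at 6.12, 5.26 and 5.55 CPM in KO and at 7.91, 7.97 and 7.34 CPM in KO_S47A. It stood at 14.7, 12.5 and 10.9 CPM in KO_WT and at 11.8, 12.35 and 10.7 CPM in KO_S404A. Scramble stood at 20.8, 20.95 and 21.1 CPM, above every library of the knockout background. The pooled log2 difference was 0.86 (SE 0.12, 95% interval 0.59 to 1.12, adjusted p = 0.0456). KO_S47A lay above KO by a log2 difference of 0.46 (SE 0.11, adjusted p = 0.0204), which is why WLS is not counted among the agreeing genes. Without the replicate block that difference was not called, and WLS agreed. The call held without KO_S47A 2 (adjusted p = 0.0239) and was lost without each of the other 11 libraries, with adjusted p-values from 0.0623 without KO_S47A 3 to 0.225 without KO_WT 3.

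**Figure D1:**
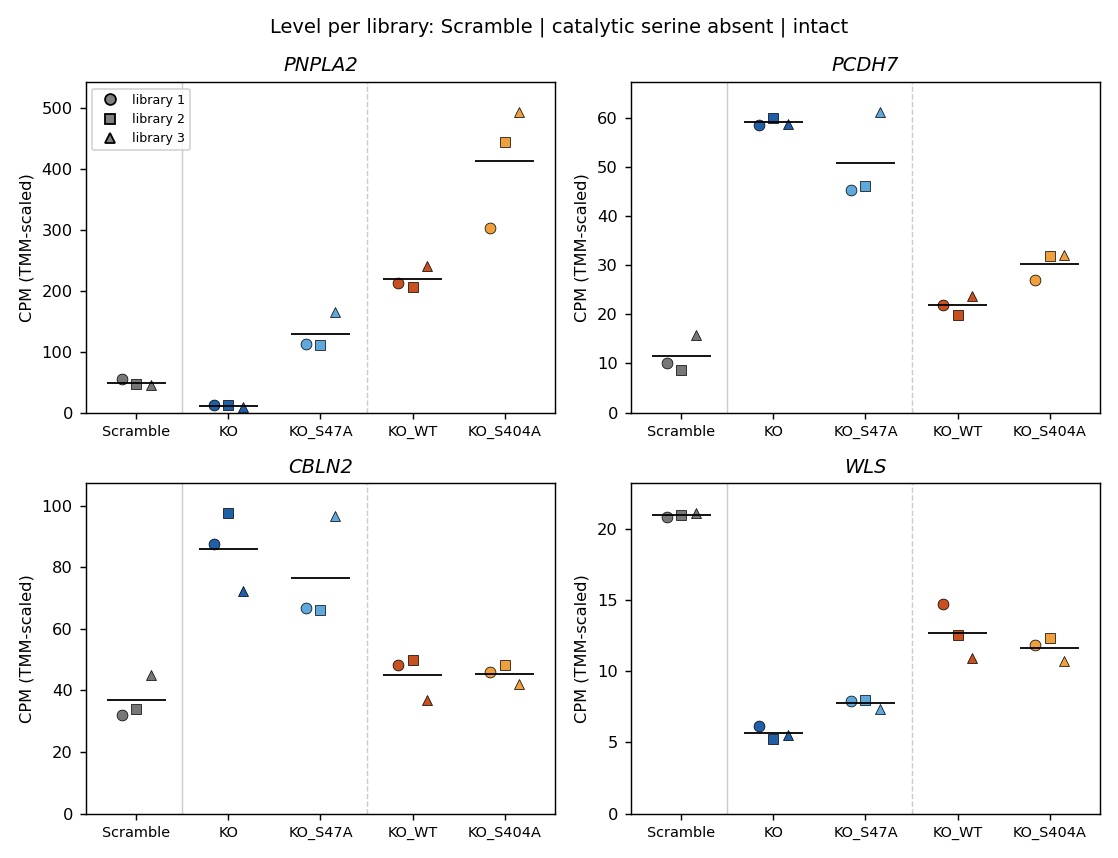
TMM-scaled CPM of PNPLA2, PCDH7, CBLN2 and WLS in each of the 15 libraries, by line, with a point per library, its shape giving the library's number, and a bar at the mean of the 3 libraries of a line. For each gene the 6 libraries of KO and KO_S47A do not overlap the 6 of KO_WT and KO_S404A, while PNPLA2 also differs between KO (9.11 to 13.0 CPM) and KO_S47A (110.3 to 164.4 CPM).

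The start sites of PCDH7 and CBLN2 are shown because these genes fell together and agreed between lines. RefSeq's promoter table (GRCh38.p14) held an entry for all 3 called genes, each 250 bases before to 50 after the start, and the sequences run 5′ to 3′ on the gene's strand. PCDH7 is at chr4:30720119-30720418 on the plus strand and CBLN2 at chr18:72544293-72544592 on the minus strand. Capitals mark CTTTGA, the core of TCF/LEF sites.
PCDH7: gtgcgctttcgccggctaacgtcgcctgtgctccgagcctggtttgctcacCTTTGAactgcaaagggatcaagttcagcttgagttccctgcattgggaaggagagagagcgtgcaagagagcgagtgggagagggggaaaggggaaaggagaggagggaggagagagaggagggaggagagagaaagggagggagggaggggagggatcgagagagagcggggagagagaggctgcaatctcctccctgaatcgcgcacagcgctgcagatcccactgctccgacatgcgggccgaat
CBLN2: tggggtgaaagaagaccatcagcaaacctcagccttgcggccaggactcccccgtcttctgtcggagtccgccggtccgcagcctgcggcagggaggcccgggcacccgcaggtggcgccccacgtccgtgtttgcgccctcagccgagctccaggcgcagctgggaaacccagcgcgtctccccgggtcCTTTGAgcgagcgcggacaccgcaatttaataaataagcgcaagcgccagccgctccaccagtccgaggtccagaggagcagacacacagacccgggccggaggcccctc

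Both windows held CTTTGA once, which 12.9% of all 35116 promoters of the same length hold on either strand. Neither held AGGTCA, the half-site of nuclear receptors of the PPAR kind (13.8% of promoters), the E-box CACGTG (7.3%) or the GC box GGGCGG (45.0%). The windows of the 2 WLS starts held none of the 4 motifs. The motifs were chosen with these sequences in view, and a match is a description of the letters in the window.

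The lines within a pool were also compared with each other. Between KO_S404A and KO_WT, 0 genes were called by edgeR, and 2085 genes (14.7%) had an unadjusted p under 0.05. Between KO_S47A and KO, 2533 genes (17.9%) were called, 1253 higher (8.85%) and 1280 lower (9.04%) in KO_S47A, and 4847 genes (34.2%) had an unadjusted p under 0.05. The middle 9 in 10 genes lay between −0.58 and 0.90 on the log2 scale for KO_S47A minus KO and between −0.38 and 0.44 for KO_S404A minus KO_WT. Between single lines of opposite pools the range was −0.45 to 0.66 for KO_WT minus KO, −0.37 to 0.64 for KO_S404A minus KO, −0.52 to 0.34 for KO_WT minus KO_S47A and −0.52 to 0.44 for KO_S404A minus KO_S47A. The pooled difference averages over 2 lines a side, so its narrower range is not set against these. The count for KO_S47A minus KO rested on single libraries and on the block for library number. It was 1 without the block, 1 without KO 2, 3 without KO_S47A 2, 275 without KO_S47A 1 and 551 without KO 1. It was 2168 from the libraries numbered 1 and 2 alone.

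Between single lines of opposite pools few genes were called. There were 9 (0.0636%) for KO_WT minus KO, 8 (0.0565%) for KO_S404A minus KO, 2 (0.0141%) for KO_WT minus KO_S47A and 1 (0.00707%) for KO_S404A minus KO_S47A. The single call of the last pair was PNPLA2 itself, with a log2 difference of 1.68 (SE 0.18, adjusted p = 0.00649). These comparisons share lines with each other and with the pooled one.

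**Figure D2:**
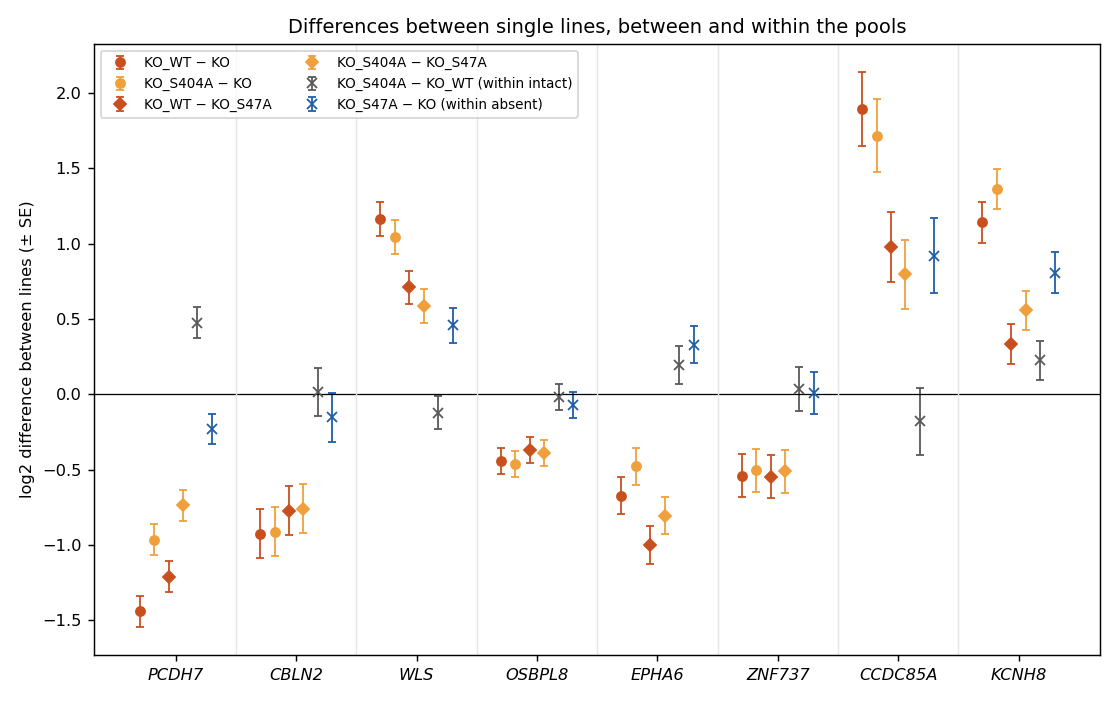
Log2 differences between single lines, with SE, for 8 genes: filled symbols are the 4 differences between an intact and an absent line, and crosses are the differences within a pool. PCDH7, CBLN2, OSBPL8, EPHA6 and ZNF737 lie below 0 in all 4 filled symbols, while for CCDC85A and KCNH8 the cross for KO_S47A minus KO (0.92 and 0.81) is as far from 0 as some of the filled symbols.

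With the 3 called genes included, 13 genes (0.0919%) had levels that did not overlap between the 6 intact and the 6 absent libraries. Higher in the intact pool were 6 of them (0.0424%), among them PNPLA2, WLS, CCDC85A, LGALS3BP and SLC23A1. Lower were 7 (0.0495%), among them PCDH7, CBLN2, OSBPL8, MLLT3, LRRC28 and ZNF737. All 4 line differences had the same sign in 1696 genes (12% of those tested), 920 higher and 776 lower. PNPLA2 aside, the uncalled genes here and in the paragraphs on OSBPL8, EPHA6, CCDC85A and KCNH8 below were chosen after their values were seen.

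OSBPL8, an endoplasmic reticulum protein that moves lipids at contacts with the plasma membrane, came close to the threshold. It stood at 257.1, 249.7 and 211.1 CPM in KO and at 227.7, 222.8 and 228.0 CPM in KO_S47A. It stood at 186.2, 189.6 and 151.5 CPM in KO_WT and at 184.7, 182.2 and 154.0 CPM in KO_S404A. The lowest absent library (211.1 CPM) was above the highest intact one (189.6 CPM), and Scramble, at 179.8, 190.1 and 188.2 CPM, lay with the intact lines. The pooled log2 difference was −0.42 (SE 0.07, adjusted p = 0.07), with −0.02 between the intact lines and −0.07 between the absent ones. DESeq2, which counted the 6 libraries of a pool as separate, called OSBPL8 (adjusted p = 1.75e-07). It also called EPHA6 (8.72e-06), ZNF737 (0.000477), MLLT3 (0.0492) and CCDC85A (0.000293), which follow. Of 26 alternative settings, OSBPL8 was called in 4, EPHA6 in 5, CCDC85A in 4, ZNF737 in 1 and MLLT3 in 1. None of them was called with counts summed per line or with the line as a random effect.

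EPHA6, an ephrin receptor, had the same adjusted p of 0.07 with a larger difference, −0.75 (SE 0.12). Its intact libraries stood between 6.90 and 13.3 CPM and its absent ones between 11.9 and 19.9 CPM, so they overlapped. Unlike for OSBPL8, Scramble lay within the absent range, at 16.3 to 19.1 CPM. ZNF737, a zinc finger gene, differed by −0.53 (SE 0.10, adjusted p = 0.299), with 2.64 to 3.97 CPM intact and 4.38 to 5.91 CPM absent. Its Scramble libraries lay above both pools, at 6.99 to 7.54 CPM. MLLT3, a subunit of a transcription elongation complex, had narrow levels, 22.2 to 23.9 CPM intact and 26.3 to 28.7 CPM absent, and a log2 difference of −0.24 (SE 0.06, adjusted p = 1.00). Scramble was above both pools here too, at 31.1 to 31.7 CPM, so for these genes the absent lines were nearer the control than the intact lines.

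CCDC85A and KCNH8 show a graded order of lines within the knockout background instead, but Scramble lay at opposite ends of it. CCDC85A stood at 0.735 ± 0.125 CPM in KO (SD, n = 3), 1.39 ± 0.234 in KO_S47A, 2.41 ± 0.22 in KO_S404A and 2.74 ± 0.453 in KO_WT, against 27.3 ± 6.05 in Scramble. KCNH8, a voltage-gated potassium channel gene, stood at 4.38 ± 1.01 CPM in KO, 7.64 ± 1.44 in KO_S47A, 9.51 ± 0.619 in KO_WT and 11.3 ± 2.67 in KO_S404A (SD, n = 3 each). Its Scramble level was 2.63 ± 0.388 CPM, below every library of the knockout background, while that of CCDC85A was above every one. The pooled log2 differences of CCDC85A and KCNH8 were 1.28 (SE 0.24, adjusted p = 0.299) and 0.80 (SE 0.19, adjusted p = 1.00). KO_S47A also differed from KO in both, by 0.92 (adjusted p = 0.027) for CCDC85A and by 0.81 (adjusted p = 0.00799) for KCNH8. The neighbouring lines KO_WT and KO_S404A did not differ beyond their spread in either gene.

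Among the genes through which ATGL is known to act, none passed the test. ABHD5, the protein that activates ATGL, stood at 26.9 to 32.2 CPM in the intact pool and 28.9 to 32.9 CPM in the absent pool, with a log2 difference of −0.05 (95% interval −0.19 to 0.09). MGLL, the monoglyceride lipase of the last step, differed by −0.02 (−0.21 to 0.17). LIPE, hormone-sensitive lipase, stood at 1.27 to 2.87 CPM intact and 1.63 to 2.24 CPM absent, a difference of 0.03 (−0.38 to 0.44). G0S2, the inhibitor of ATGL, had too few counts to be tested, and HILPDA was not analysed here.

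No enzyme that makes triglyceride and no protein that coats droplets passed the test between the pools. DGAT1, which catalyses the last step of triglyceride synthesis, differed by 0.03 (95% interval −0.11 to 0.17). DGAT2, which catalyses the same step, differed by 0.06 (−0.27 to 0.38), but the lines of the absent pool did not agree. KO_S47A minus KO was called at −0.58 (adjusted p = 0.0154), KO_WT minus KO was −0.25 (adjusted p = 0.298) and KO_S404A minus KO_S47A was 0.42 (adjusted p = 0.277). DGAT2 was low in KO_S47A 1 and 2, at 14.91 and 15.65 CPM. In KO_S47A 3 it stood at 28.26 CPM, within the range of KO, 26.5 to 29.52 CPM. PLIN3, a droplet coat protein, differed by 0.07 (−0.13 to 0.27). PLIN2, another coat protein, stayed at or below 0.504 CPM in every library of the knockout background.

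PPARα and what it is known to control showed no call either. PPARA differed by −0.04 (95% interval −0.28 to 0.21). CPT1A, the entry step of fatty acids into mitochondria, stood at 240.8 to 289.8 CPM intact and 225.5 to 272.5 CPM absent, and differed by 0.09 (−0.06 to 0.25). Its interval, which counts the 6 libraries of a pool as separate, lies within a factor of 2 in either direction. PPARG differed by 0.36 (0.07 to 0.65), with an unadjusted p of 0.0181 and an adjusted p of 1.00, and its libraries overlapped, at 4.04 to 6.52 CPM intact and 2.11 to 5.83 CPM absent. PPARGC1A, a coactivator of mitochondrial genes, differed by 0.29 (−0.08 to 0.66). PDK4, ANGPTL4 and LPL, targets of PPAR receptors in other tissues, stayed under 1 CPM in all 12 libraries. In Scramble LPL stood at 9.04 to 15.0 CPM, above every library of the knockout background, while PDK4 and ANGPTL4 stayed under 1 CPM there too.

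KLK3, which encodes prostate-specific antigen and is a marker of this kind of cell, did not pass the test. It stood at 1829 to 3232 CPM intact and 1991 to 3464 CPM absent and differed by 0.09 (95% interval −0.14 to 0.32).

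**Figure D3:**
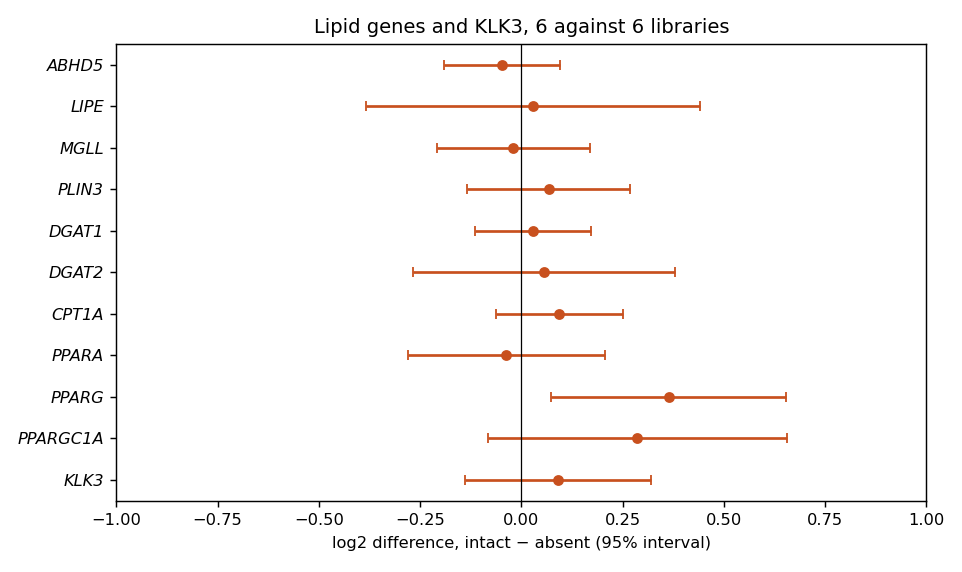
Pooled log2 difference, intact minus absent, with its 95% interval for KLK3 and 10 genes of lipolysis, triglyceride synthesis, droplet coats, fatty acid oxidation and PPAR regulation (6 against 6 libraries). The interval of PPARG, 0.07 to 0.65, is the one among the 11 that does not include 0, and its adjusted p was 1.00.

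Gene lists held few called members. Of 45 tested genes of Wnt secretion, receptors and feedback, 1 was called, WLS, and of 14 tested protocadherins and cadherins 1 was called, PCDH7. No member of the other lists was called. The median log2 difference was 0.00 over 35 genes of fatty acid oxidation and ketone metabolism, 0.05 over 16 lipid droplet coat genes, 0.03 over 16 genes of triglyceride synthesis, 0.01 over 18 PPAR targets and −0.03 over 57 nuclear subunits of the respiratory chain, against −0.01 over all genes tested. For the respiratory chain all 57 intervals lay within −0.5 and 0.5, and for AMPK subunits and upstream kinases all 17. For fatty acid oxidation and ketone metabolism 31 of 35 did.

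No gene of cholesterol synthesis was called. The median over 27 such genes controlled by SREBP was −0.10 for intact minus absent and −0.11 for KO_S47A minus KO, within the absent pool. At an unadjusted p under 0.05, 3 of the 27 were lower in the intact pool, against 62 of all genes tested (0.438%). HMGCS1, the first committed step, stood at 74.2 to 82.8 CPM intact and 81.3 to 87.7 CPM absent (−0.13, SE 0.05, unadjusted p = 0.0362). FDFT1, which makes squalene, differed by −0.16 (SE 0.06). STARD4, a carrier of cholesterol, had a pooled difference of −0.41 (SE 0.17), but KO_S47A stood apart at 13.5 ± 2.14 CPM, against 8.73 ± 0.169 in KO, 9.01 ± 0.755 in KO_WT and 7.89 ± 2.45 in KO_S404A (SD, n = 3 each). Its lines did not agree, and KO_S47A minus KO was called (0.62, adjusted p = 0.0242). SCD, which puts the double bond into fatty acids, was the 1 of 22 genes of fatty acid synthesis with an unadjusted p under 0.05, at −0.23 (SE 0.09, unadjusted p = 0.0195). The adjusted p of each of these genes was 1.00, and they were named after their values were seen.

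**Figure D4:**
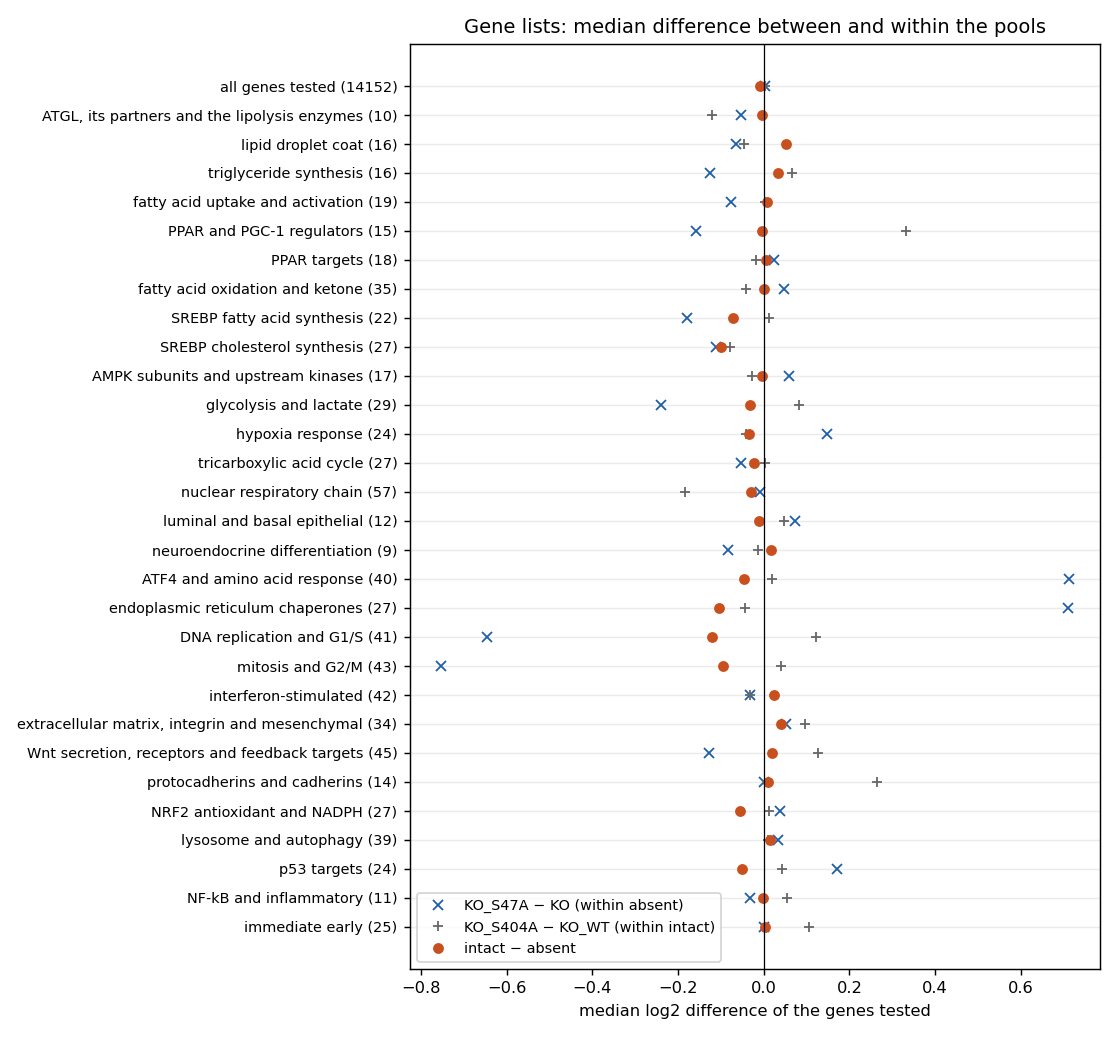
Median log2 difference of the tested genes of each list shown, cell type markers left out (number in brackets), for the pooled comparison (filled circles), for KO_S47A minus KO (crosses) and for KO_S404A minus KO_WT (plus signs). The pooled medians plotted lie between −0.12 and 0.05, while the medians of 4 lists for KO_S47A minus KO lie at −0.75, −0.65, 0.71 and 0.71.

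In 4 lists the lines without the catalytic serine stood far apart from each other. The intact lines lay between them in the libraries numbered 1 and 2, while in those numbered 3 KO_S404A lay just beyond KO in the ATF4 list (a mean relative log2 level of −1.26 against −1.15), the chaperones (−0.50 against −0.46) and DNA replication (0.7035 against 0.6952). Of 40 genes of the ATF4 and amino acid response, which cells raise when amino acids or secretory folding fall short, 36 were called higher in KO_S47A than in KO, with a median log2 difference of 0.71. Of 27 endoplasmic reticulum chaperones and degradation factors 26 were called higher, with a median of 0.71. Of 41 genes of DNA replication and the G1/S step 37 were called lower, with a median of −0.65, and of 43 genes of mitosis 40, with a median of −0.75. Over all genes tested 8.85% were called higher and 9.04% lower in KO_S47A minus KO. These counts were 36, 26, 38 and 40 with RLE size factors, and each was 0 without the block for library number, without KO 2 or without KO_S47A 2. Without KO_S47A 1 they were 22, 5, 3 and 7, and without KO 1 they were 25, 12, 16 and 24.

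The medians of the intact lines against KO had the sign of those of KO_S47A against KO and were smaller, with 9 and 8 calls over all genes for KO_WT and KO_S404A against KO. The median of the ATF4 list was 0.38 for KO_WT minus KO and 0.37 for KO_S404A minus KO, and −0.34 and −0.35 against KO_S47A. For the chaperones the medians were 0.36 and 0.34 against KO and −0.42 and −0.44 against KO_S47A. For DNA replication they were −0.45 and −0.36 against KO and 0.19 and 0.30 against KO_S47A. For mitosis they were −0.43 and −0.41 against KO and 0.33 and 0.35 against KO_S47A. Averaged over the absent lines, the differences largely cancelled, and the pooled medians were small but all below 0, at −0.05, −0.11, −0.12 and −0.09. No member of the 4 lists was called in the pooled comparison, and no member had 4 line differences of the same sign.

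Single genes of these lists show the spread. HERPUD1, a factor of endoplasmic reticulum degradation, stood at 198.2, 183.7 and 78.8 CPM in KO and at 755.7, 752.8 and 168.2 CPM in KO_S47A. It stood at 452.9, 417.7 and 101.5 CPM in KO_WT and at 591.4, 293.2 and 72.9 CPM in KO_S404A. Within each line the library numbered 3 was the lowest, and among the libraries numbered 1 and 2 KO was the lowest line and KO_S47A the highest. KO_S47A minus KO was 1.65 (SE 0.24, adjusted p = 0.00758), and intact minus absent was −0.26 (SE 0.36, adjusted p = 1.00). BUB1B, a checkpoint kinase of mitosis, stood at 109.7, 112.3 and 172.0 CPM in KO and at 43.1, 44.8 and 121.3 CPM in KO_S47A. It stood at 59.4, 68.4 and 146.0 CPM in KO_WT and at 47.9, 85.7 and 160.4 CPM in KO_S404A. KO_S47A minus KO was −1.07 (SE 0.17, adjusted p = 0.00784), and intact minus absent was −0.16 (SE 0.24, adjusted p = 1.00).

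Other members behaved likewise. SLC7A11, the cystine importer, had a log2 difference of 1.20 (SE 0.17) in KO_S47A minus KO, CTH, which makes cysteine, 1.29 (SE 0.20), and SLC6A9, a glycine transporter, 1.47 (SE 0.20). DERL3 stood at 1.67 (SE 0.24) and SYVN1, a ubiquitin ligase of endoplasmic reticulum degradation, at 1.14 (SE 0.17). FEN1, a nuclease of DNA replication, stood at −0.91 (SE 0.17), PCNA, the sliding clamp, at −0.65 (SE 0.12) and TYMS, which makes thymidylate, at −0.63 (SE 0.11). The pooled differences of these 8 genes ran from −0.29 to −0.05. All 8 were called in KO_S47A minus KO and none in the pooled comparison, and like HERPUD1 and BUB1B they were named after their values were seen.

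**Figure D5:**
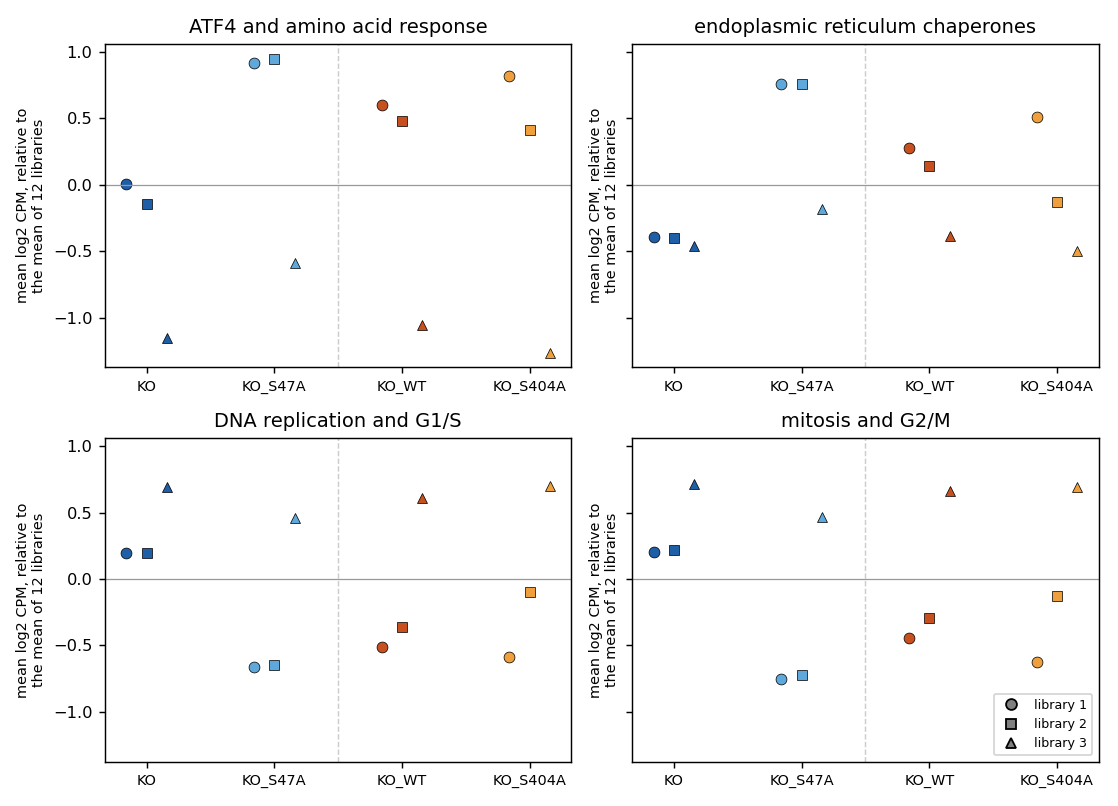
Mean log2 CPM of 4 gene lists per library, relative to the mean of the 12 libraries, with a point per library whose shape gives its number. In the ATF4 list the libraries numbered 3 lie between −1.26 and −0.59 and all the others between −0.14 and 0.95, and among libraries 1 and 2 those of KO lie at one end of all 4 lists and those of KO_S47A at the other.

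COL12A1, a collagen gene, separated KO from all 3 lines with a protein put back, whether or not it carried the catalytic serine. It stood at 1.60, 1.60 and 1.63 CPM in KO, at 5.24, 4.56 and 3.25 CPM in KO_S47A, at 6.00, 4.45 and 4.66 CPM in KO_WT and at 5.23, 3.89 and 2.87 CPM in KO_S404A. All of these were far below Scramble, at 71.1, 71.8 and 42.6 CPM. COL12A1 was called in KO_S47A minus KO (log2 difference 1.40, SE 0.19, adjusted p = 0.00599), in KO_WT minus KO (1.63, adjusted p = 0.00367) and in KO_S404A minus KO (1.27, adjusted p = 0.0278), and KO_WT minus KO_S47A was 0.22 (SE 0.18, adjusted p = 0.755). The pooled difference of COL12A1, 0.59 (SE 0.30), was not called (adjusted p = 1.00), and the gene was named after its values were seen.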

How the data were processed

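The authors deposited a table of raw read counts per gene for each library, whole numbers that were not normalized, with reads aligned by STAR and base calls from CASAVA per the submitters' processing notes. The genome build, the annotation and the strand setting of the counting were not given in the sources used here. Reads of overlapping or antisense genes therefore cannot be told apart. The tables hold 20806 gene entries, and unassigned reads, 13.2% to 19.3% of each of the 12 libraries, were left out. Counts were fitted in R 4.3.3 with edgeR 4.0.16 (filterByExpr, TMM over all 15 libraries, quasi-likelihood test, 1 mean per pool, library number as a factor), with Benjamini-Hochberg adjustment over the 14152 genes kept and calls at an adjusted p under 0.05. Each SE is the size of the log2 difference over the root of F. Single lines were compared in a fit with 1 mean per line. limma 3.58.1 and DESeq2 1.42.0 served as alternatives.

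The genes named were PNPLA2, up to 12 called genes per direction that agreed across lines, called members of the gene lists, up to 3 called genes that did not agree, and a set of lipid-droplet and fatty acid genes with KLK3 whatever their values. Some genes under these rules are not reported here. Members and lists were chosen with earlier results of these data known. On simulated counts for 13999 genes the test called 100% of 100 genes changed by a log2 of 1 in both lines of a pool, 91% of 100 changed by 0.5 and 0.0809% of unchanged genes, and it counted 0.5% of 200 genes changed in 1 line only as agreeing. Apart from the set changes, all simulated libraries shared 1 mean per gene, without the differences between lines and library numbers that the data hold. The changed genes were also drawn from those above a minimum level. These shares therefore do not give the power or error rate of the pooled test on the real counts. The FPKM columns were not used.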

Additional observations from a re-analysis of the deposited data

Results flagged for a closer look

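In 100 sets of 6 libraries (50 genes, 2 pools each), 4 held a library whose gap to its neighbour, as a share of the range of the 6, was over Dixon's critical value, and chance gives about 1 such set in 20. G0S2, the inhibitor of ATGL, stood at 0.0720 CPM in KO 2 and was at 0 in the other 5 absent libraries. PLIN2 stood at 0.504 CPM in KO_S47A 3, with the next absent library at 0.185 CPM. LRRC28 stood at 14.6 CPM in KO_S47A 1, with the next at 12.7 CPM. CADPS2, a factor of vesicle release that was not called (log2 difference −0.32), stood at 20.6 CPM in KO_S404A 3, with the next intact library at 16.4 CPM.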

How the results depend on the processing

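Of 26 alternatives, 12 leave out 1 library. The pooled comparison called 1 gene higher, 2 lower and 2 list members, with 0 higher and 2 lower genes agreeing across lines. Fitted without the replicate block, 1 gene agreed as higher and S47A against KO gave 1 call against 2533. With 1 mean per line, 4 genes were higher and 4 lower, with 4 agreeing as lower. With counts summed per line, and with limma-voom and the line as a random effect, 0 were called in either direction, as without the line KO, without the line KO_WT, and with libraries 1 and 2 only. Without KO_S404A 0 were higher, 1 lower and 1 a list member, and without KO_S47A 7 were higher and 5 were list members. DESeq2 called 2 higher and 6 lower, with 6 agreeing. With all 15 libraries 2 were higher and 4 lower, with 4 agreeing. Without the filter, and with a covariate for the libraries numbered 3 (chosen after seeing the data), 3 were lower, with 3 agreeing. The cause was not tested. Leaving out 1 library at a time gave 0 to 1 higher, 0 to 2 lower, 0 to 2 list members, 0 to 1 agreeing as higher, 0 to 2 agreeing as lower, 1 to 3181 calls for S47A against KO and 0 for S404A against WT.

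No called gene changed sign, but genes that were not called did, and their log2 differences follow. PLIN2 gave −0.0586 without the replicate block, −0.0494 with counts summed per line, −0.0099 with DESeq2, −0.0053 without the filter and −0.35 without KO. ANGPTL4 gave 0.0568 without the replicate block, 0.0721 with counts summed per line, 0.0887 with limma-voom, 0.17 without KO_S47A, 0.21 without KO_S404A and 0.0694 with the covariate for libraries numbered 3. LIPE gave −0.051 with limma-voom and −0.23 without KO_WT. LPL gave 0.0734 with limma-voom, 0.0917 without KO, 0.0893 without KO_S404A and 0.0036 with libraries 1 and 2 only. MGLL gave 0.0773 without KO and 0.0709 without KO_WT, PPARA 0.0371 and 0.0977 in turn, and KLK3 −0.0745 without KO_WT. Without KO_S47A, PLIN3 gave −0.0621 and DGAT2 −0.20. Without KO_S404A, PLIN3 gave −0.0047 and ABHD5 0.0255. Leaving out 1 library moved MGLL from −0.0853 to 0.0298, PPARA from −0.13 to 0.0222, LPL from −0.25 to 0.22, PLIN2 from −0.33 to 0.46, LIPE from −0.14 to 0.15, ANGPTL4 from −0.36 to 0.15 and DGAT2 from −0.0433 to 0.18.

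The library numbers do not qualify as pairs: deviations of same-numbered libraries correlated at 0.16 to 0.513 for number 1, 0.0233 to 0.276 for number 2 and 0.437 to 0.683 for number 3, and 7 of 12 libraries correlated best with their own number. The block is in the fit because the comparison is defined with it. The median half-width of a 95% interval was 0.24 on the log2 scale, and G0S2 was too low to be tested.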
